A study of Homo sapiens with 12 samples.

Results

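The genes of the cytosolic ribosomal proteins were followed in BCPAP, a human cell line from a papillary thyroid cancer, cultured in low or atmospheric oxygen with or without silencing of NOX4, an NADPH oxidase. The members were the protein-coding genes of the deposited table whose symbol begins with RPL (large subunit) or RPS (small subunit). The S6 kinase genes, RPS19BP1, hyphenated readthrough names and the Y-linked copies were left out. This gave 85 members of 58735 genes in the table, 53 of them RPL and 32 RPS. The 4 groups were cells with siRNA against NOX4 (siNOX4) at 1% oxygen (hypoxia), siNOX4 cells at 20% oxygen (normoxia), cells with a scrambled siRNA (siControl) in hypoxia, and siControl cells in normoxia. Each group had 3 RNA-seq libraries, which the labels describe as separate transfections of this 1 cell line. All cells had been through siRNA transfection, so there was no untransfected group.

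Ribosomal proteins bind ribosomal RNA in the nucleolus and form the small and large subunits that decode mRNA and join amino acids. Their mRNAs are among the most abundant in proliferating cells, and most begin with a C followed by a run of pyrimidines, the 5′ terminal oligopyrimidine (TOP) tract. Translation of TOP mRNAs is controlled by mTORC1 through the RNA-binding protein LARP1, and this control is known to respond to nutrients and oxygen. The assay measured mRNA abundance, so neither ribosome number nor translation was measured.

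The starts below are shown because they set members with large falls in hypoxia beside members with smaller changes, and paralogues beside their parents. Each is RefSeq sequence (GRCh38.p14) of 10 bases before and 20 bases from an annotated transcript start, 5′ to 3′ on the gene's strand, with a TOP tract in capitals. A tract was counted where the start is C and only C or T follow, over at least 5 bases in all. The starts are annotated ones and were not measured here. The first pair, RPS13 (chr11:17077648-17077677, minus strand) and RPL26 (chr17:8383174-8383203, minus), encode a small and a large subunit protein and were among the largest falls.
RPS13: ctctcgctctCCTTTCgttgcctgatcgcc
RPL26: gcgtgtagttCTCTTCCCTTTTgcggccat
RPL13A (chr19:49487598-49487627, plus) and RPS9 (chr19:54200848-54200877, plus) carry tracts as well and changed less than the median member with both siRNAs.
RPL13A: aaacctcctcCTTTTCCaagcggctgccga
RPS9: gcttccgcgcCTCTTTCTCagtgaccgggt
RPL22 (chr1:6199576-6199605, minus) and its paralogue RPL22L1 (chr3:170870176-170870205, minus) both have one.
RPL22: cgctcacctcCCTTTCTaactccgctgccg
RPL22L1: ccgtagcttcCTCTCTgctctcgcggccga
No tract stood at the annotated starts of RPS29 (chr14:49598691-49598720, minus), RPL17 (chr18:49492446-49492475, minus), RPL7L1 (chr6:42879606-42879635, plus) or RPL26L1 (chr5:172958719-172958748, plus, the upstream of its 2 starts).
RPS29: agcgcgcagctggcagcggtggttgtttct
RPL17: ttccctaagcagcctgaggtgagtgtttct
RPL7L1: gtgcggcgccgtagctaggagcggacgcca
RPL26L1: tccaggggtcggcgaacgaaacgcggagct

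Summed counts per library ranged from 16559386 to 21282835. NOX4 averaged 0.193 ± 0.135 CPM in siNOX4 and 0.547 ± 0.229 CPM in siControl normoxia, and 0.188 ± 0.0289 CPM in siNOX4 and 0.627 ± 0.247 CPM in siControl hypoxia (SD, n = 3 each). Its log2 fold changes of −1.48 in normoxia (adjusted p = 0.0826) and −1.70 in hypoxia (adjusted p = 1) were not called. CPM is the library-scaled count after TMM scaling. Within siControl normoxia, replicates 1 and 3 stood apart from replicate 2, which resembled the siNOX4 normoxia libraries. Replicate 1 of siNOX4 hypoxia was lowest of its group for 81 of 83 tested members. The main counts of members that rest on these libraries are given with and without them. Counts over the other gene lists use all libraries. Of 8 thyroid markers, 4 reached 1 CPM, PAX8 and NKX2-1 among them, and TG, TSHR and SLC5A5 were among those that did not. KRT19 and CDH1, 2 of 6 epithelial markers, were under 1 CPM too. The summed endothelial markers were at most 33.7 CPM and the fibroblast markers at most 28.3 CPM, both highest in siControl normoxia. Within that group they went down to 4.64 and 14.8 CPM. Its replicates 1, 2 and 3 had 518, 43 and 365 counts of PECAM1 before scaling, and 179, 0 and 187 of COL3A1. COL1A1 differed less, with 200, 183 and 168. The part of other cell types in the results was not tested.

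The members differed widely in level. The median member had a mean of 831 CPM, and 73 of 85 exceeded 100 CPM. Per length, as deposited FPKM, RPL13A was highest, at 1457 ± 183 in siNOX4 hypoxia, 2013 ± 183 in siNOX4 normoxia, 1497 ± 33.7 in siControl hypoxia and 1399 ± 379 in siControl normoxia (SD, n = 3 each). RPL8, RPS12 and RPS21 were among those that followed, and their ranges overlapped one another: in siNOX4 normoxia they averaged 1378 ± 99.9, 1411 ± 109 and 1445 ± 108 FPKM. At the low end stood paralogues that in human tissues are known mainly from muscle or testis. RPL39L had 0 counts in all 12 libraries, where 3 counts correspond to 0.141 to 0.181 CPM. RPL10L had 10 counts in all, and RPL3L, the muscle paralogue of RPL3, had 84. RPL39L and RPL10L did not pass the filter on low counts, which left 83 members in the tests across 17277 genes.

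Members have copies elsewhere in the genome, with which they could share reads. The table listed 1149 pseudogenes named for 77 of the members, and these held 3.70% to 3.99% as many counts as the members in each library. For RPS10, RPS28, RPL9 and RPS2 the pseudogenes held 77.5%, 50.9%, 44.2% and 26.9% of the counts of member and pseudogenes together, so these 4 levels are uncertain. RPL17, RPL36A and RPS10 also overlap readthrough genes, and their mean counts of 495.3, 234.8 and 39.33 per library were low for ribosomal protein genes.

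Together the members took up a smaller part of the mRNA in hypoxia than in normoxia in siNOX4 cells. They held 5.63%, 7.19% and 7.12% of protein-coding counts in the siNOX4 hypoxia libraries, against 10.1%, 10.2% and 9.21% in the siNOX4 normoxia libraries. The groups did not overlap, with means of 6.65% ± 0.88 and 9.83% ± 0.533 (SD, n = 3 each). In siControl cells the share was 6.66%, 6.62% and 6.86% in hypoxia, against 6.55%, 9.21% and 6.75% in normoxia. Here the groups overlapped: replicate 2 of siControl normoxia lay at the siNOX4 normoxia level, while replicates 1 and 3 lay among the hypoxia libraries. Fewer cells of a kind and less RNA per cell cannot be told apart in such bulk shares.

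**Figure D1:**
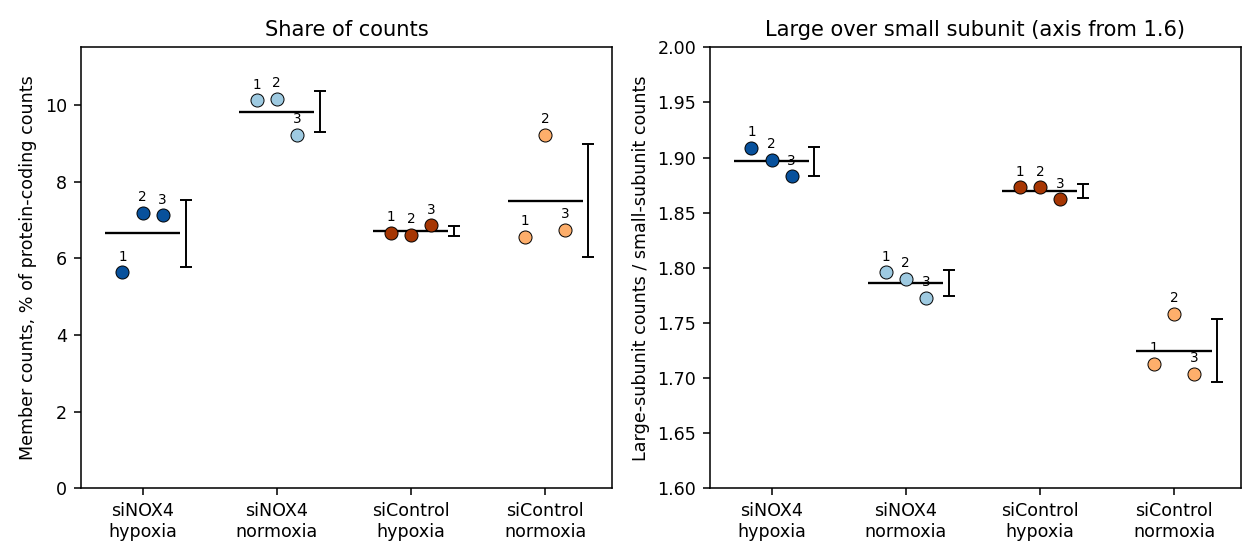
Left, percent of protein-coding counts held by the 85 members (axis from 0); right, summed large-subunit counts over summed small-subunit counts (axis starts at 1.6); points are libraries with replicate numbers, lines group means and bars SD (n = 3). In the left plot siControl normoxia replicate 2 sits at 9.21%, with the siNOX4 normoxia libraries, and in the right plot every hypoxia library lies above every normoxia library.

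The balance between the subunits moved in a way that replicates 1 and 3 did not blur. Large-subunit counts were 1.909, 1.898 and 1.883 times the small-subunit counts in siNOX4 hypoxia, against 1.796, 1.790 and 1.773 times in siNOX4 normoxia. In siControl cells the ratios were 1.873, 1.873 and 1.862 in hypoxia, against 1.713, 1.758 and 1.704 in normoxia. No hypoxia library overlapped a normoxia library. The median change of single members was nevertheless alike in the subunits. It was −0.86 for 51 RPL and −0.85 for 32 RPS members with siNOX4, and −0.34 and −0.35 with siControl, on the log2 scale.

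In siNOX4 cells hypoxia lowered nearly the whole set. With edgeR's quasi-likelihood test at an adjusted p under 0.05, 75 of 83 tested members fell and RPL7L1 alone rose; 56.6% of all genes tested were called in this comparison, 27.8% lower and 28.8% higher. The median member had a log2 fold change of −0.86, against 0.03 for all genes. In 79 members every hypoxia library lay below every normoxia library, which held for 34.9% of all genes. The fall exceeded 1 log2 unit in 23 members. Without replicate 1 of siNOX4 hypoxia 66 members fell, none was called higher, and the median was −0.72, while 49.2% of all genes were called.

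**Figure D2:**
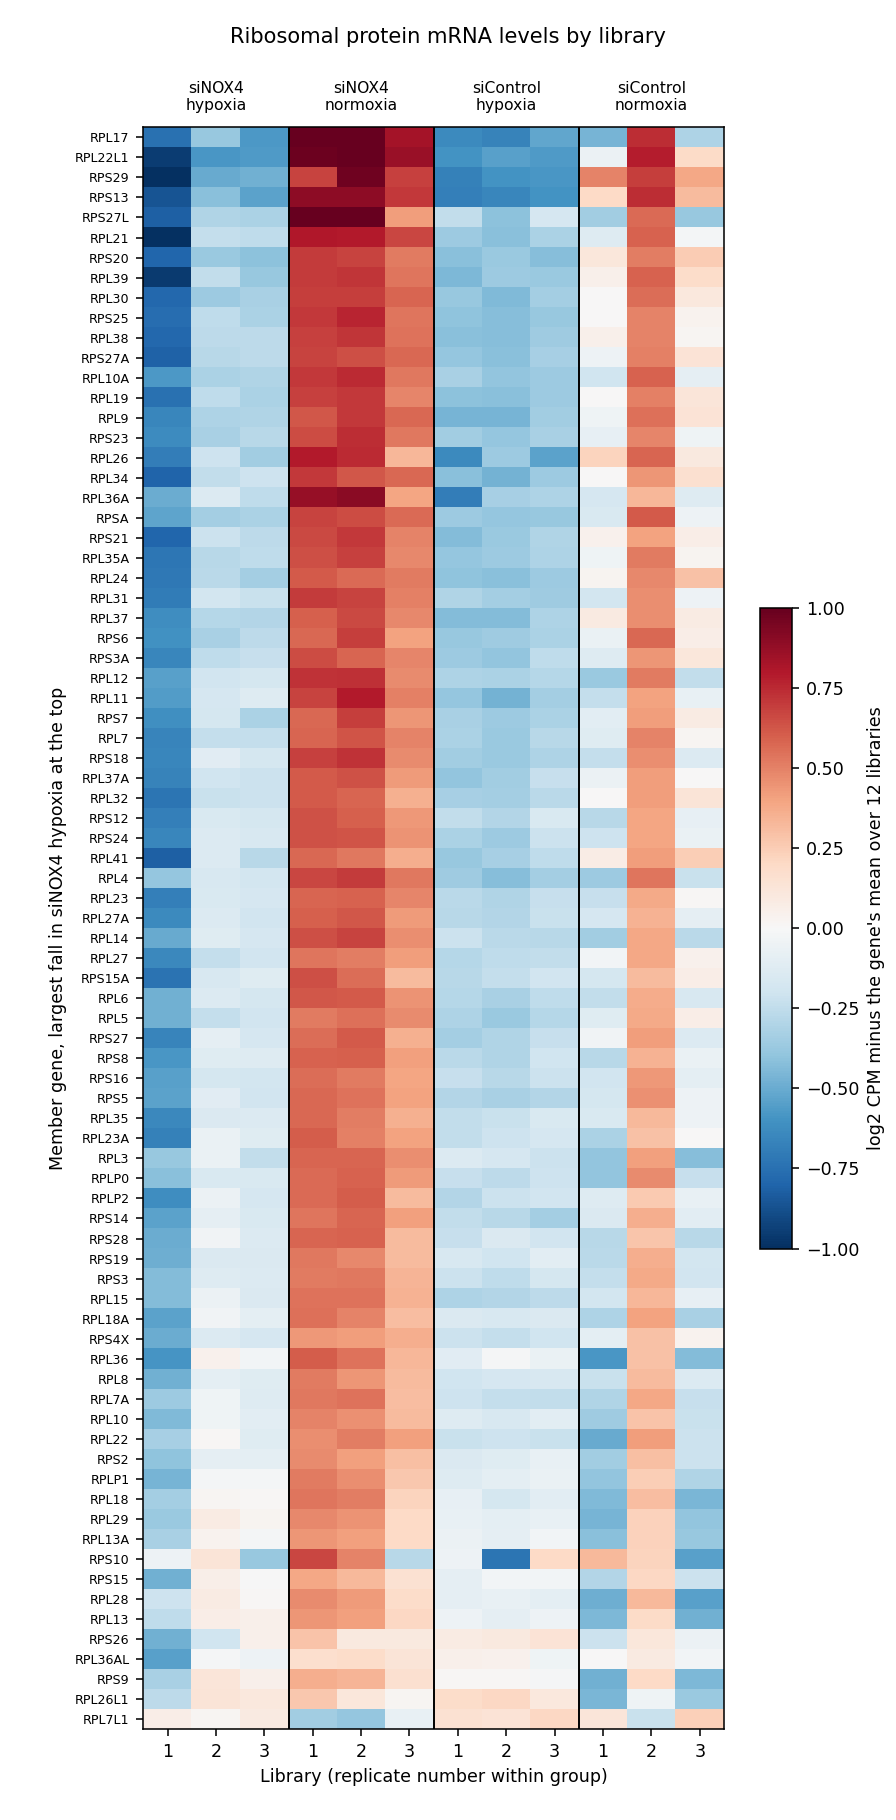
Rows are tested members (RPL3L, with few counts, and some others not reported here are left out), ordered by their change with siNOX4, and columns are the 12 libraries; colour is log2 CPM minus the gene's mean over all libraries, bounded at 1 in either direction. Nearly all rows are red in siNOX4 normoxia and in siControl normoxia replicate 2 and blue in hypoxia, while RPL7L1, at the bottom, runs the other way.

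The largest falls were in RPL17, RPL22L1, RPS29, RPS13, RPS27L and RPL21. RPS29 (ENSG00000213741, GRCh38 chromosome 14, 49570984 to 49599164, minus strand), a zinc-binding protein of the small subunit head, had 95.9, 141 and 143 CPM in siNOX4 hypoxia, against 319, 392 and 322 CPM in siNOX4 normoxia. Its log2 fold change was −1.44 (SE 0.147, adjusted p = 7.69e-06). All 3 hypoxia libraries lay well under the lowest normoxia library. RPS13 (ENSG00000110700, chromosome 11, 17074389 to 17077787, minus strand), a small subunit protein at the interface with the large one, had 414, 564 and 521 CPM in siNOX4 hypoxia, against 1398, 1398 and 1232 CPM in siNOX4 normoxia, a change of −1.43 (SE 0.147). RPL21, of the large subunit, changed by −1.24 (SE 0.217, adjusted p = 0.000429), with 179.8, 327 and 324 CPM in siNOX4 hypoxia and 674, 670.1 and 615 CPM in siNOX4 normoxia. For RPS13 and RPL21 too the groups did not overlap.

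RPL17 (ENSG00000265681, chromosome 18, 49488453 to 49492523, minus strand), which sits at the mouth of the peptide exit tunnel, had 14.7, 18.96 and 16.6 CPM in siNOX4 hypoxia, against 62.4, 64.9 and 43.9 CPM in siNOX4 normoxia. This was the largest fall of any member with siNOX4, −1.77 (SE 0.266, adjusted p = 0.000137), at a low count. RPS27L, a p53-induced paralogue of RPS27, had 13.4, 19.1 and 18.8 CPM in siNOX4 hypoxia, against 47.4, 46.9 and 31.4 CPM in siNOX4 normoxia (−1.29, SE 0.249). Both genes thus fell by more than the median member.

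The members that were not called were few. RPL13, of the large subunit, was the most abundant of them, at 1693, 2122 and 2095 CPM in siNOX4 hypoxia and 2750.0, 2694 and 2337 CPM in siNOX4 normoxia. Its change of −0.40 missed the threshold (SE 0.164, adjusted p = 0.0545), although the groups did not overlap. RPL3L, RPL28, RPS10, RPS9 and RPL26L1 were among the others, with values of −1.54, −0.40, −0.43, −0.33 and −0.14 on the log2 scale.

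In siControl cells the same comparison was divided by the normoxia libraries. With all libraries, 37 of 83 members fell and 2 rose, RPL26L1 among them; of all genes tested, 53.3% were called, 27.6% lower and 25.7% higher. The median member changed by −0.34 and the median gene by −0.01. The groups did not overlap in 49 members that were lower and 2 that were higher in hypoxia, where all genes gave 27.7% and 29.2%. Without siControl normoxia replicates 1 and 3, which leaves 1 normoxia library that is assumed to vary like the other groups, 73 members fell, RPL7L1 rose and the median was −0.70, while 53% of all genes were called. Without replicate 2 instead, 30 fell, 12 rose and the median was −0.15, and the 42 of 83 called lay below the 63.3% of all genes. The size of the fall in siControl cells therefore depended on which normoxia libraries it was set against.

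RPS29 fell under each of these choices, with 125, 132 and 134 CPM in siControl hypoxia, against 282, 322 and 261 CPM in siControl normoxia. Its log2 fold change was −1.15 (SE 0.146, adjusted p = 4.2e-05), and −1.31 without replicates 1 and 3. RPS13 had 469.9, 479.9 and 498 CPM in siControl hypoxia, against 865, 1258 and 938 CPM in siControl normoxia, a change of −1.08 (SE 0.146, adjusted p = 6.6e-05). RPL22L1, RPL26 and RPS20, a small subunit head protein, were next, at −0.92, −0.82 and −0.71, each called. In these 5 genes every hypoxia library lay below every normoxia library, replicates 1 and 3 included. RPL3L was also called (−2.37, adjusted p = 0.0144), but from at most 21 counts in a library, and not without normoxia replicate 2 (−1.61) or hypoxia replicate 3 (−2.13).

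RPL13A, the most abundant member, was among those that turned with the choice of libraries. It had 3591, 3521 and 3674 CPM in siControl hypoxia, against 2809, 4395 and 2875 CPM in siControl normoxia. The hypoxia libraries lay between the normoxia libraries, and the change of 0.10 (SE 0.163) was not called; without replicates 1 and 3 it was −0.29, and called. With siNOX4 it fell by 0.45 (SE 0.163, adjusted p = 0.033).

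The order of the members was shared by both siRNAs, whose hypoxia comparisons use no library in common. Across 83 members the log2 fold changes with siNOX4 and with siControl had a Pearson correlation of 0.828 and a Spearman correlation of 0.926, against 0.782 and 0.786 across all genes. The points within each comparison share its libraries, so this is a description. Of the 37 members that fell with siControl, 36 were also called lower with siNOX4, and RPL3L was the exception. With siNOX4 90.4% of all tested members were called lower, so this overlap says little about a shared order. The log2 change was more negative with siNOX4 in 81 of 83 members and in 8406 of 17277 genes.

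**Figure D3:**
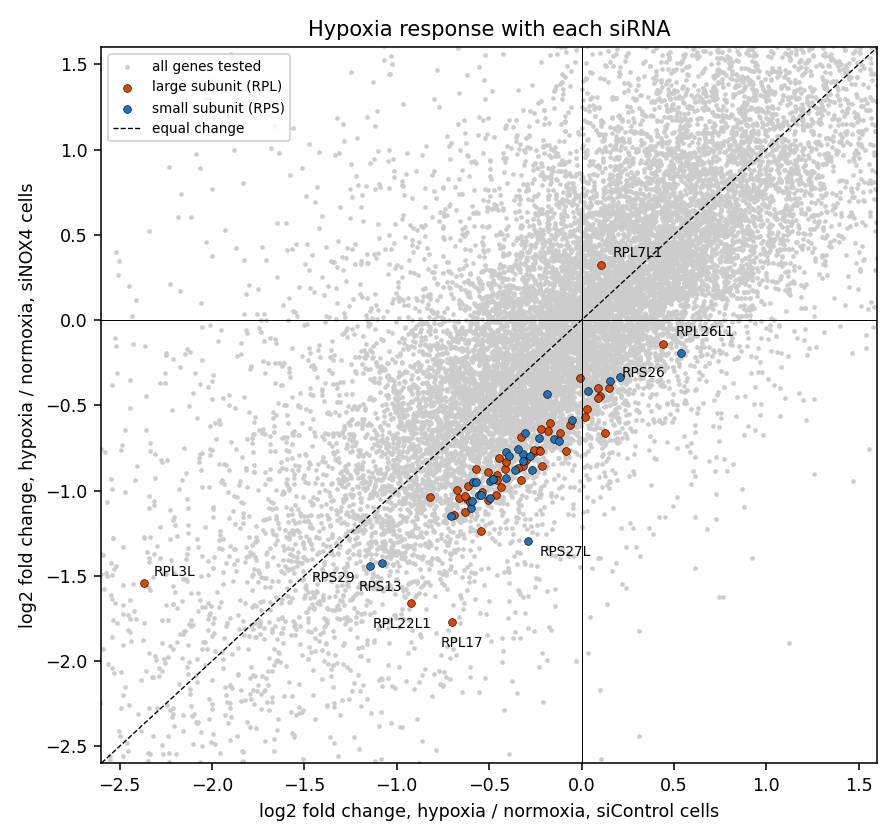
Log2 fold change in hypoxia against normoxia of every gene tested, with siNOX4 on the y axis and siControl on the x axis (genes with more extreme changes lie outside the axes); orange points are large and blue points small subunit members, grey points all genes, and the dashed line marks equal change. The members form a narrow band below the line, from RPS29 and RPS13 to RPL26L1, and RPL7L1 lies off it.

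That offset did not pass the test of the difference itself with the filter on low counts. The interaction of siNOX4 and hypoxia had a median of −0.48 over the members and was negative in 81, but edgeR's test called none (0% of all genes tested), while 41 of 83 members and 3609 of 17277 genes (20.9%) had an unadjusted p under 0.05. DESeq2 also called no member, and 75 genes in all. With no filter on low counts edgeR called 41 of 84 members, all negative, and 5.64% of all genes. The libraries that stood apart set its size. Without siControl normoxia replicate 2 the test called 79 members (78 negative, median −0.69) and 42.9% of all genes, and without replicates 1 and 3 it called no member, with a median of −0.16, and 2 genes in all.

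The comparison of siNOX4 with siControl in normoxia turned on the same libraries. There 23 of 83 members were called higher and none lower; of all genes tested, 15% were called, 3.97% higher and 11% lower. The median member was at 0.45 and the median gene at −0.01 on the log2 scale. In 46 members every siNOX4 library lay above every siControl library, as in 11.1% of all genes. The 23 adjusted p-values lay between 0.0302 and 0.0497. The count was 0 without siControl normoxia replicates 1 and 3, where the median was 0.13. Without replicate 2 it was 79, with 1 member lower, and 54.9% of all genes were called. Without siNOX4 hypoxia replicate 1 it was 25, and 8.15% of all genes were called. It was 0 or 1 when any other single library was left out, where 0.0111% to 3.57% of all genes were called.

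RPL17 differed most, at 62.4, 64.9 and 43.9 CPM in siNOX4 normoxia, against 17.9, 41.0 and 19.9 CPM in siControl normoxia (1.12, SE 0.26, adjusted p = 0.0302). RPL3, which lies near the peptidyl transferase centre, had 2240.0, 2237 and 2060.0 CPM in siNOX4 normoxia, against 1137, 1983 and 1113 CPM in siControl normoxia (0.63, SE 0.184, adjusted p = 0.0424). In both genes replicate 2 of siControl normoxia lay close below the siNOX4 libraries and the other replicates far below. RPL36A (0.71), RPL36 (0.69) and RPL14 (0.63) were also among the 6 largest rises called without overlap. RPL13A missed the threshold at 0.51 (adjusted p = 0.0521).

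In hypoxia, where the siControl libraries lay close together, no member was called for siNOX4 against siControl, nor was any gene (0% of all genes tested). At an unadjusted p under 0.05 edgeR gave 1 member (RPS26, at −0.30) and 448 genes (2.59%), and DESeq2 called no member and 4 genes. The median member was at −0.03, and the members other than RPL3L lay between −0.30 and 0.14 with a median SE of 0.154. In 2 members the siNOX4 libraries were all lower, and in none all higher, against 8.7% and 7.87% of all genes. Without siNOX4 hypoxia replicate 1 the median was 0.10, and again no member was called.

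Members with roles of their own are described next. The stalk proteins RPLP0, RPLP1 and RPLP2, which recruit translation factors to the large subunit, changed by −0.76, −0.57 and −0.76 in hypoxia with siNOX4, each called, though RPLP1 was not without siNOX4 hypoxia replicate 1 (−0.43). With siControl they were at −0.23, 0.02 and −0.26, none called. RPL5 and RPL11, which with 5S ribosomal RNA can bind MDM2, fell with both siRNAs, by 0.81 and 0.94 on the log2 scale with siNOX4 and by 0.45 and 0.46 with siControl, where RPL11 was not called without normoxia replicate 2 (−0.24) or any 1 hypoxia library (−0.48 to −0.41). RPS6, the substrate of the S6 kinases, had 486, 592 and 619 CPM in siNOX4 hypoxia, against 1106, 1199 and 979 CPM in siNOX4 normoxia. It fell by 0.95 on the log2 scale there and by 0.57 with siControl. RPSA, also described as a laminin receptor, and RPS27A, made as a fusion with ubiquitin, fell by 1.02 and 1.06 with siNOX4 and by 0.56 and 0.59 with siControl. RPS19, the gene most often mutated in Diamond-Blackfan anaemia, fell by 0.69 with siNOX4, and its −0.15 with siControl was not called.

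The paralogues were the members that departed most from the common course. RPL22L1 (ENSG00000163584, chromosome 3, 170864875 to 170870483, minus strand) can take the place of RPL22 in the large subunit. It had 53.7, 69.3 and 70.1 CPM in siNOX4 hypoxia, against 206, 215 and 189 CPM in siNOX4 normoxia (−1.66, SE 0.179, adjusted p = 1.17e-05). With siControl it had 68.7, 71.3 and 70.1 CPM in hypoxia, against 99.8, 179.4 and 119 CPM in normoxia (−0.92, SE 0.176, adjusted p = 0.000846). RPL22 itself was at −0.61 with siNOX4 (SE 0.179, not called at −0.52 without hypoxia replicate 1) and was not called with siControl (−0.17).

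Per length, RPL22L1 made up 51.5% ± 1.6 of the pair in siNOX4 hypoxia, against 68.8% ± 0.641 in siNOX4 normoxia. In siControl cells it made up 55.0% ± 0.38 in hypoxia, against 67.4% ± 0.581 in normoxia (SD, n = 3 each). The hypoxia libraries spanned 50.4% to 55.3% and the normoxia libraries 66.8% to 69.2%. Unlike the summed share of counts, this share did not separate siControl normoxia replicates 1 and 3 (68.0% and 67.4%) from replicate 2 (66.8%).

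RPL26L1 did not follow its parent. RPL26, of the large subunit near the exit tunnel, had 41.7, 58.5 and 52.9 CPM in siNOX4 hypoxia, against 117, 113 and 84.5 CPM in siNOX4 normoxia (−1.04, SE 0.164). RPL26L1 (ENSG00000037241, chromosome 5, 172958729 to 172969771, plus strand) had 36.8, 48.1 and 47.3 CPM in siNOX4 hypoxia, against 53.1, 47.6 and 44.7 CPM in siNOX4 normoxia, and was not called (−0.14). With siControl, RPL26 had 43.3, 52.4 and 46.6 CPM in hypoxia, against 78.4, 101 and 72.0 CPM in normoxia, and RPL26L1 had 49.9, 50.7 and 47.3 CPM in hypoxia, against 32.1, 42.6 and 34.1 CPM in normoxia. RPL26 fell (−0.82) and RPL26L1 rose (0.44, SE 0.13, adjusted p = 0.0118); without replicates 1 and 3 RPL26L1 was at 0.21 and not called.

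RPL26L1 thereby made up 65.1% ± 1.03 of its pair per length in siNOX4 hypoxia, against 50.2% ± 2.87 in siNOX4 normoxia. In siControl cells the shares were 69.2% ± 1.92 in hypoxia and 48.4% ± 1.94 in normoxia (SD, n = 3 each). Again no hypoxia library overlapped a normoxia library. Pseudogenes held 16.6% of the counts of RPL26 and its copies together, and this could touch the level of the parent.

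**Figure D4:**
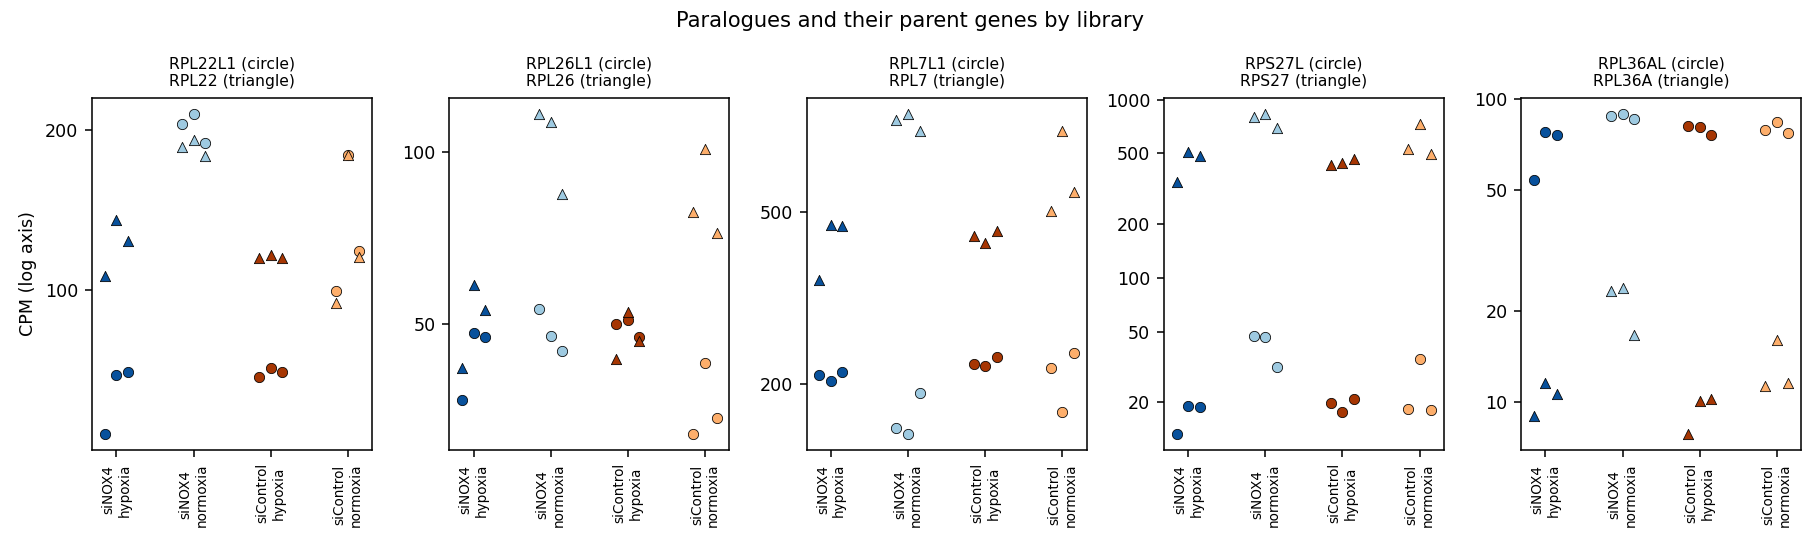
CPM on a log axis of 5 paralogues (circles) and their parents (triangles) in each library, with the groups along the x axis. RPL22L1 circles sit below the RPL22 triangles in hypoxia and at or above them in normoxia, RPL26L1 and RPL26 meet in siControl hypoxia, and RPL7L1 alone is higher in hypoxia with siNOX4.

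RPL7L1 (ENSG00000146223, chromosome 6, 42879618 to 42889925, plus strand), whose yeast relative acts in ribosome assembly, had 209, 203 and 213 CPM in siNOX4 hypoxia, against 158, 153 and 189.8 CPM in siNOX4 normoxia. It rose by 0.32 (SE 0.116, adjusted p = 0.0315) while RPL7 fell by 0.93 on the log2 scale. The rise was not called without siNOX4 normoxia replicate 1 or 2 or any 1 of the 3 siNOX4 hypoxia libraries (0.26 to 0.34). With siControl RPL7L1 had 222, 219.5 and 231 CPM in hypoxia, against 218, 172 and 236 CPM in normoxia; the groups overlapped and 0.10 was not called. RPL36AL, which held most of its pair with RPL36A per length, fell by 0.34 with siNOX4 (adjusted p = 0.026), and RPL36A fell by 1.03. RPL36A overlaps a readthrough gene and had low counts, so its part of the pair is uncertain. The call of RPL36AL was lost without siNOX4 normoxia replicate 1 (−0.34) or 2 (−0.33) or siNOX4 hypoxia replicate 1 (−0.19). RPS27L made up 0.432% ± 0.00914 of its pair with RPS27 in siNOX4 hypoxia and 0.603% ± 0.0822 in siNOX4 normoxia. In siControl cells it made up 0.491% ± 0.0366 in hypoxia and 0.448% ± 0.0807 in normoxia, where the libraries overlapped.

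TOP tracts were common in the set, and members with and without one at an annotated start had much the same median fall. Of 68 members found in the table of RefSeq starts, 47 (69.1%) had a tract at an annotated start, against 1404 of 27305 genes (5.14%). In siNOX4 hypoxia 43 of the 47 with a tract fell, with a median of −0.88, and so did 18 of 20 tested members without one, with a median of −0.83. With siControl 20 of 47 and 9 of 20 fell, with medians of −0.36 and −0.32. RPS13 and RPS9, both with the tracts shown above, lay at −1.43 and −0.33 with siNOX4, and RPS29 and RPL17, with none at the annotated start, were among the largest falls. The classes rest on the exact annotated start. Some members counted as without a tract have a pyrimidine run across the start (RPL19) or near it (RPL4, RPL27). The medians therefore cannot separate TOP mRNAs from others.

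The members' change varied little with gene length. In 5 classes of tested genes by length, the members' median ranged only between −0.93 and −0.79 with siNOX4 and between −0.41 and −0.32 with siControl. In the shortest class all genes had medians of −0.12 and 0.00. Across members the Spearman correlation of the change with length was 0.0147 with siNOX4 and 0.0494 with siControl, and with level it was 0.337 and 0.289.

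Other parts of the ribosome pathway, in lists written from textbook knowledge, did not all follow the ribosomal proteins. FAU, the ubiquitin-like fusion that encodes eS30, fell with siNOX4 (−0.69) and was not called with siControl. Of 17 tested mRNAs of other TOP genes, 11 fell and 1 rose in hypoxia with siNOX4, and 9 fell and 1 rose with siControl. Their medians were −0.64 and −0.32. Of all genes tested, 27.8% fell and 28.8% rose with siNOX4, and 27.6% fell and 25.7% rose with siControl. Among the other TOP mRNAs, the initiation factor subunit EIF3H and the elongation factor EEF1A1 were called lower with both siRNAs. They lay at −1.06 and −0.85 with siNOX4 and −0.75 and −0.65 with siControl. Of 10 tested host genes of small nucleolar RNAs, 8 fell with siNOX4 and 7 with siControl, and none rose. SNHG8 was lowest, at −1.50 and −1.11.

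Genes of ribosome assembly moved both ways. Of 74 biogenesis factors, 14 rose and 29 fell with siNOX4, and 13 rose and 30 fell with siControl, with medians of −0.09 and −0.22. The called share was 58.1% with each siRNA, near the 56.6% and 53.3% of all genes. NAT10, which acetylates 18S ribosomal RNA, rose by 1.02 and 0.84. DDX21, a nucleolar helicase, changed by −0.92 and −1.07. Of 14 genes of the RNA polymerase I machinery, which transcribes ribosomal RNA, 5 rose and 5 fell with each siRNA, 71.4% of the list. UBTF, its upstream binding factor, rose by 0.88 and 1.15, and TAF1D, a subunit of its promoter selectivity factor, was at −1.94 and −1.41.

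Of 7 dedicated ribosomal protein chaperones, 2 rose and 1 fell with siNOX4, and 3 rose and 1 fell with siControl. These were 42.9% and 57.1% of the list, against 56.6% and 53.3% of all genes. GRWD1, which escorts RPL3, rose by 0.99 and 0.56. Of 7 regulators of TOP mRNAs and ribosomal protein synthesis, 5 rose and 1 fell with siNOX4, and 4 rose and 1 fell with siControl, 85.7% and 71.4% of the list. The transcription factor MYC rose by 1.73 and 2.31, and EIF4EBP1, a repressor of cap-dependent initiation that mTORC1 inhibits, by 0.48 and 1.04. LARP1 was not called with siNOX4 (0.00) and rose by 0.52 with siControl (adjusted p = 0.0269). That rise leaned on siControl normoxia replicates 1 and 3, with 4866 and 4370 counts before scaling, against 7996 in replicate 2. The related LARP4 fell, at −0.61 and −0.87.

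**Figure D5:**
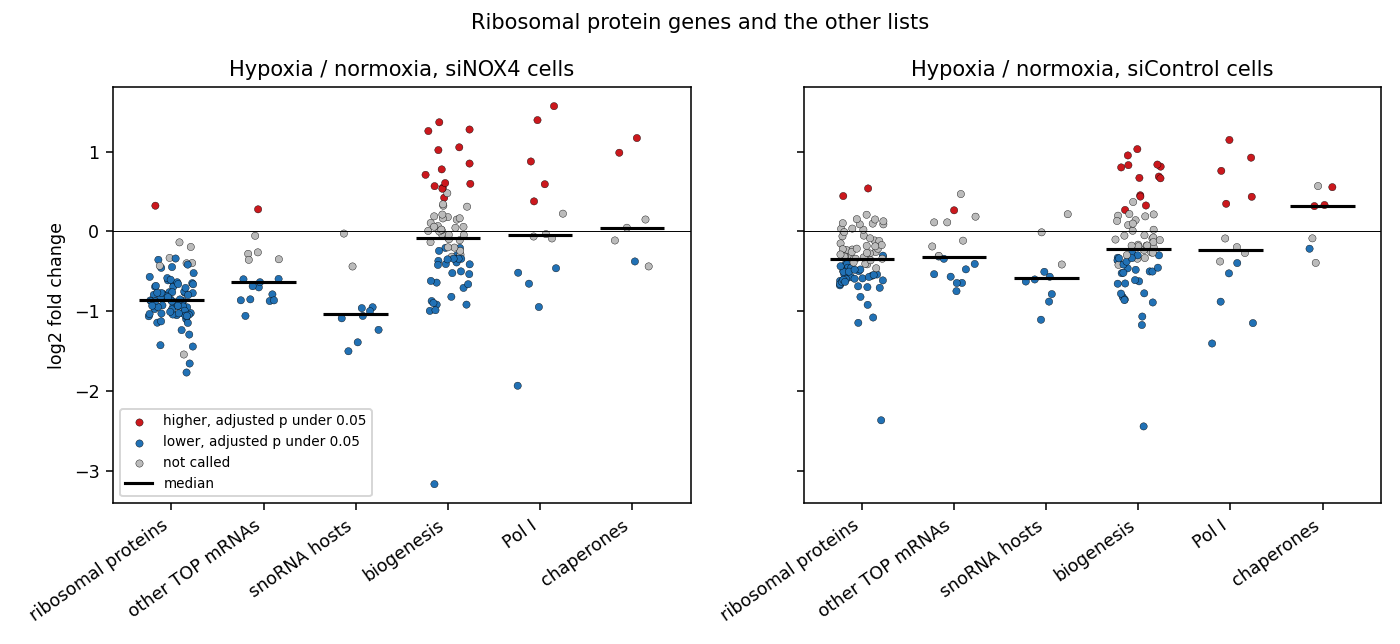
Log2 fold change in hypoxia against normoxia for members and 5 lists, with siNOX4 on the left and siControl on the right; red points are called higher, blue lower and grey not called, bars are medians and points are spread sideways at random. The ribosomal proteins, the other TOP mRNAs and the small nucleolar RNA hosts lie mostly below 0, and the biogenesis and polymerase I genes lie on both sides.

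In siNOX4 against siControl normoxia, 5 of 17 other TOP mRNAs and 2 of 10 host genes were higher and none lower. Of the biogenesis factors 3 were higher and 12 lower, of the polymerase I genes 3 and 3. The biogenesis shares, 4.05% higher and 16.2% lower, lay near the 3.97% and 11% of all genes. Without siControl normoxia replicates 1 and 3, 9 genes in all were called in this comparison.

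The authors' deposited table of fold changes, at the same threshold on its adjusted p-values, held 78 members lower and 1 higher in hypoxia with siNOX4, where it called 35.6% of all genes. For siControl the authors' deposited table held 31 lower and 2 higher, and called 24.4% of all genes. For siNOX4 in normoxia the authors' deposited table held 1 member higher (1.19%) and called 2.37% of all genes, and in hypoxia it called no member and 0.149% of all genes.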

How the data were processed

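Whole-number counts per gene and library were deposited by the authors, per the file headers, beside FPKM values that the authors made from gene length and library totals. The authors also deposited log2 fold changes and p-values for their own comparisons; where those run normoxia over hypoxia the sign was turned here. Libraries were made with a TruSeq RNA kit, per the labels' protocols. The submitters' processing notes name Bowtie 0.12.2; no source used here gives the counter, the test tool or the treatment of multi-mapping reads. All 58735 identifiers and positions were those of GENCODE 29 (GRCh38). The kit is taken as unstranded, so overlapping genes on opposite strands could share counts. RPS13 overlaps PIK3C2A on the same strand.

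All 12 libraries entered 1 edgeR fit of the counts (edgeR 4.0.16, R 4.3.3) with TMM factors 0.903 to 1.09, filterByExpr, 1 mean per group, quasi-likelihood F test, 8 residual and 4.63 prior degrees of freedom. Genes counted as called when the Benjamini-Hochberg adjusted p over 17277 genes was below 0.05; the fits were tested on simulated data. SE belongs to the log2 fold change, and CPM is TMM-scaled. The floor of 3 counts covers counting error only. Alternatives used other scalings, filters, DESeq2 1.42.0, limma 3.58.1 on log2(FPKM + 1) and log2(FPKM + 0.1) for genes of mean FPKM 1 or more, pseudogene counts added, a replicate block, each library left out, and siControl normoxia without replicates 1 and 3.

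Named for each comparison were NOX4, the 6 largest called rises and falls without overlap, the uncalled member of highest CPM, paralogue pairs, RPLP0, RPLP1, RPLP2, RPSA, RPS6, RPL5, RPL11, RPS19 and RPS27A. From each list up to 3 called genes by smallest p and the uncalled gene of highest CPM could be named. Others were named after their values were seen, and some genes, among them ones the rule names, are not reported here. Members, lists and alternatives were chosen with earlier results of these data known.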

Additional observations from a re-analysis of the deposited data

How the results depend on the processing

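Each library was left out in turn, and shares of all genes called are in brackets. In hypoxia with siControl 28 to 52 members were called (43.8% to 63.3%), and with siNOX4 66 to 80 (47.1% to 67.5%). For siNOX4 in normoxia the range was 0 to 80 (0.0111% to 54.9%), and for the interaction 0 to 79 (0% to 42.9%). It was 0 in every case for siNOX4 in hypoxia (0% to 0.0668%). Without siControl normoxia replicates 1 and 3 the counts were 74 in hypoxia with siControl and 0 for siNOX4 in normoxia. There the log2 ratio of the members' share of counts was −0.46 for hypoxia with siControl and 0.0916 for siNOX4 in normoxia. The siNOX4 count in normoxia was 73 with no filter (12.6% of all genes), 68 with DESeq2 (24.1%) and 48 with the replicate block (15.1%). It was 0 with only the compared groups (0%) and with limma on FPKM at either pseudocount (0.158% and 0.15%). The interaction count was 41 with no filter (5.64%). Upper-quartile scaling put the median of all genes at 0.11 in hypoxia with each siRNA, and relative to it the members still lay lower. With siControl 26 members were lower and 2 higher, where 53.5% of all genes were called. With siNOX4 69 members were lower and 1 higher, where 56.4% of all genes were called. Deviations of same-numbered libraries correlated weakly at most, between −0.0623 and 0.197, above 0.1 in 3 of 18 pairs. Different-numbered libraries lay between −0.211 and 0.163. These values do not settle whether the numbers mark pairs. Under the block 41 and 77 members were called in hypoxia with siControl and siNOX4, and 52.4% and 56% of all genes.

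In hypoxia with siControl 70 of 83 members were negative, 56 without siControl normoxia replicate 2 and 80 without replicates 1 and 3. Among the genes followed by name, directions turned with a call in either fit for 5 there. Without replicates 1 and 3 RPL13A was at −0.29, RPLP1 at −0.35, EIF4EBP2 at 0.34 and SNHG1 at −0.28, and without siControl normoxia replicate 2 RPL3 was at 0.25 (lowest with 1 library left out, −0.23). POLR1B, for siNOX4 in normoxia, was at 0.023 without replicates 1 and 3. The remaining limits are 3 libraries per group, 1 cell line, and reads that pseudogenes may share. Small differences between members are within the SE.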
